A study of Mus musculus with 2 samples.

Results

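The Hedgehog pathway was examined through 9 genes: the ligand genes Shh, Dhh and Ihh, the receptor-side genes Ptch1, Smo and Hhip, and the transcription factor genes Gli1, Gli2 and Gli3. They were chosen by name, and every probe set that the platform annotation assigns to exactly 1 of these symbols was taken, which gave 21 of the 45101 probe sets on the array. Of 2 arrays, one carried RNA of gonad-mesonephros complexes, in which the developing gonad lies against the embryonic kidney, from XX Gata4ki/ki mouse embryos at E12.5, of strain C57Bl/6. The second carried RNA of the same tissue from XX wild-type embryos at E12.5, whose strain the labels do not give. Gata4ki is a germline knock-in whose GATA4 protein, a transcription factor of the somatic gonad, binds its FOG cofactors poorly, and it is present in every tissue of the embryo. Each RNA came from 6 pairs of complexes, and each group had 1 array, so no value below has a replicate error or a test, and every difference describes these 2 arrays only.

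Hedgehog ligands are secreted, lipid-modified proteins. In their absence the receptor Patched (PTCH1) holds the membrane protein Smoothened (SMO) inactive. Ligand binding releases SMO, which acts at the primary cilium, and GLI2 and GLI3 are then kept as activators where they would otherwise be cut into repressors. Gli1, Ptch1 and Hhip are themselves transcribed in responding cells, so their transcripts serve as readouts of the pathway. In the fetal mouse testis Sertoli cells make DHH, and steroidogenic Leydig cells form under its influence. In the neighbouring urinary tract and gut, SHH is made by the lining epithelium and received by the mesenchyme around it.

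Values are MAS5 signals on a linear scale in arbitrary units. The median of all values of both arrays, a signal of 24.0, served as a floor to which lower values were raised before taking log2. A probe set counted as measured when its signal passed the floor on 1 or both arrays. When only 1 array passed, the ratio is a bound and carries the words "at least" or "at most". All log2 ratios are Gata4ki/ki over wild type. Signals of different probe sets depend on their probes and were not read as transcript levels of one gene against another. Summed signals of a list add the deposited signal of 1 probe set per gene, genes under the floor included. Such sums are weighted to the probe sets of highest signal. No MAS5 detection calls were used, so the floor stands in for a background call. The arrays had 22534 (Gata4ki/ki) and 22566 (wild type) probe sets above the floor, with median signals of 24.0 and 24.1. The gonad genes Wt1, Nr5a1, Lhx9, Gata4, Cbx2 and Tcf21 and the mesonephric genes Pax8, Lhx1, Gata3, Wnt9b, Emx2, Cdh16 and Calb1 were all measured, and so were the germ cell genes Dazl, Ddx4, Pou5f1, Dppa3, Dppa5a and Kit. Gata4 had signals of 286.2 in Gata4ki/ki and 240.8 in wild type on one probe set and of 34.6 and 49.2 on the other. Zfpm2, which encodes the cofactor FOG2, had 784.0 in Gata4ki/ki and 530.2 in wild type, and 262.1 and 133.4 on its second probe set. The allele changes the GATA4 protein, so these values do not check the labels. Of 6 early ovary genes, Fst, Foxl2 and Irx3 were at least 2-fold lower in Gata4ki/ki, where 0.537% of all measured genes were. Wnt4, Rspo1 and Bmp2 had log2 ratios of -0.28, 0.34 and 0.42. The summed signals of the list were 1915 in Gata4ki/ki and 3111 in wild type. This list too was written with earlier results of these data known.

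No Hedgehog probe set differed 2-fold between the arrays. Shh had a 1.62-fold lower signal in Gata4ki/ki, and Gli3 was lower on each of its 3 probe sets, by 1.28-fold on the one with the highest signal. Ptch1 and Gli1, whose transcripts follow pathway activity, had log2 ratios of 0.11 and -0.17. Dhh and Ihh were under the floor on both arrays. Of the 21 probe sets, 12 were measured, 10 of them above the floor on both arrays, and these covered 7 of the 9 genes. At least 2-fold apart were 0 of these 12, where 1.37% of all 21238 measured named probe sets were. At least 1.5-fold apart was 1 of 12, Shh on the lower side, where 7.73% of all were, 4.03% of all being lower in the mutant. The median log2 ratio was -0.12 over the 12 measured Hedgehog probe sets and -0.003 over all measured probe sets. Their ratios ran from -0.70 to 0.32.

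**Figure D1:**
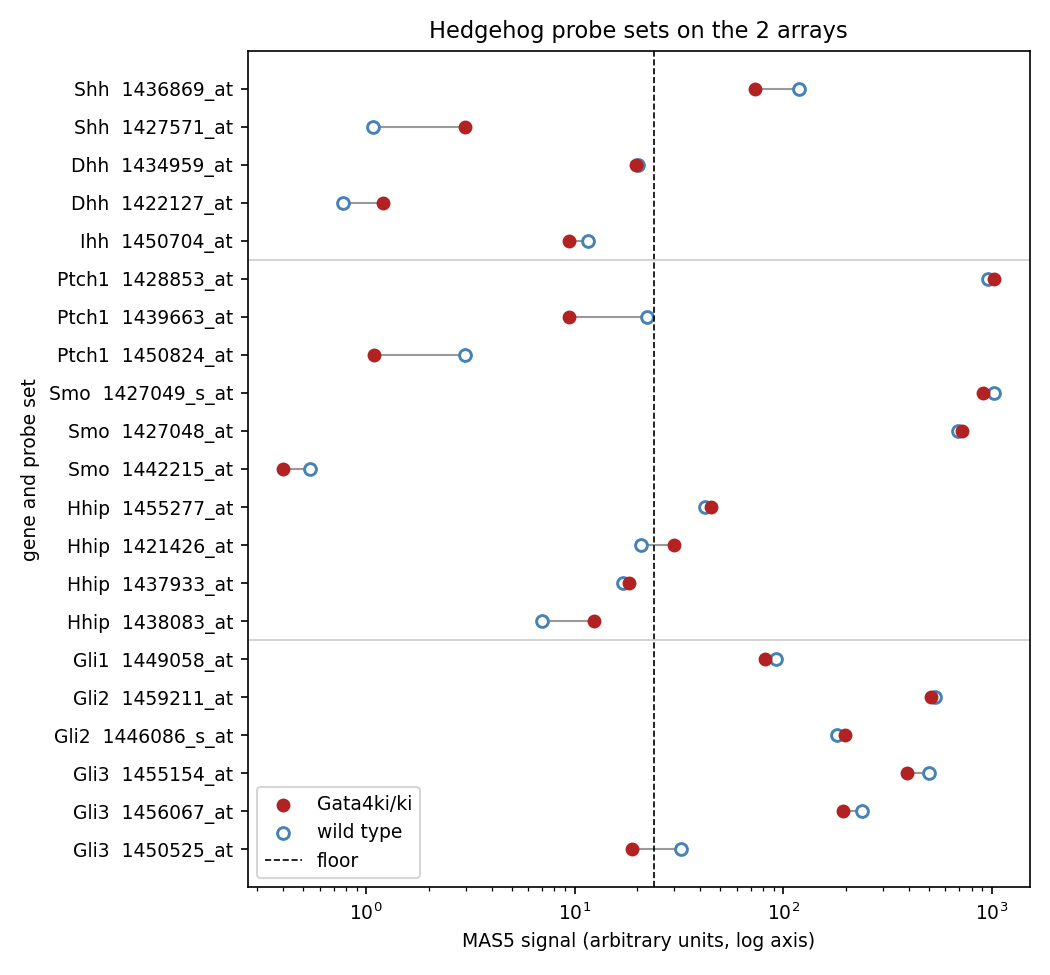
MAS5 signal (log axis, arbitrary units) of each of the 21 Hedgehog probe sets on the Gata4ki/ki array (filled red) and the wild-type array (open blue), joined by a line, with the floor of 24.0 as a dashed line and grey lines between ligands, receptor-side genes and GLI factors. Both points lie right of the floor for 10 probe sets, and the widest gap among these is that of Shh 1436869_at, at 73.0 in Gata4ki/ki and 118.5 in wild type.

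Among the ligands only Shh was measured, and its signal was lower in the mutant. Shh encodes Sonic hedgehog. Its probe set 1436869_at had a signal of 73.0 in Gata4ki/ki and 118.5 in wild type, a log2 ratio of -0.70. The other Shh probe set, 1427571_at, had 2.99 in Gata4ki/ki and 1.08 in wild type, far under the floor on both arrays, and gives no second reading of the ratio. Among the 1000 measured probe sets nearest to 1436869_at in mean signal, 4.80% were at least as far apart in either direction and 2.60% were lower by at least as much. The robust SD of their log2 ratios was 0.31. In whole tissue, fewer cells of a type and less RNA per cell cannot be told apart, and gonad and mesonephros were read together.

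Dhh encodes Desert hedgehog, the ligand of Sertoli cells and of the Schwann cells of nerves. Its probe set 1434959_at had 19.6 in Gata4ki/ki and 20.1 in wild type, just under the floor and nearly equal. The second Dhh probe set, 1422127_at, had 1.21 in Gata4ki/ki and 0.78 in wild type. Ihh encodes Indian hedgehog, the ligand of growing cartilage and of gut epithelium, and its single probe set 1450704_at had 9.38 in Gata4ki/ki and 11.6 in wild type. At such signals MAS5 values are mostly background, so neither the presence of these transcripts nor a difference between the arrays could be shown for either gene.

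On the receptor side, Ptch1 and Smo had signals well above the floor that were close on both arrays. Ptch1 encodes the receptor that binds the ligands and is also a target of the pathway. Its probe set 1428853_at had 1028 in Gata4ki/ki and 954.5 in wild type, a log2 ratio of 0.11. Of the 1000 probe sets of nearest signal, 41.1% were at least as far apart. The other Ptch1 probe sets were under the floor on both arrays, 1439663_at with 9.36 in Gata4ki/ki and 22.2 in wild type, and 1450824_at with 1.09 in Gata4ki/ki and 2.99 in wild type. At such signals their difference cannot be read. With the floor lowered to the 40th percentile, a signal of 13.7, 1439663_at had a log2 ratio of at most -0.69 while 1428853_at kept 0.11.

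Smo encodes Smoothened, the membrane protein that carries the signal onward. Its probe set 1427049_s_at had 913.1 in Gata4ki/ki and 1025 in wild type, a log2 ratio of -0.17. The probe set 1427048_at had 716.6 in Gata4ki/ki and 692.1 in wild type, a ratio of 0.05, and 1442215_at was under 1 on both arrays, at 0.40 in Gata4ki/ki and 0.54 in wild type. The measured probe sets of Smo thus differed in sign, as they did in 55.0% of the 5463 genes with at least 2 measured probe sets. An s in the name of a probe set marks probes that match more than 1 transcript. Of the probe sets with like signal, 22.4% were at least as far apart as 1427049_s_at and 70.0% as 1427048_at.

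Hhip encodes the Hedgehog-interacting protein, a cell-surface decoy that binds the ligands and is induced by the pathway. Its probe set 1455277_at had 44.9 in Gata4ki/ki and 42.1 in wild type, a log2 ratio of 0.09. The probe set 1421426_at had 30.1 in Gata4ki/ki and 20.9 in wild type, at least 1.25-fold higher. The remaining probe sets were under the floor on both arrays, 1437933_at with 18.2 in Gata4ki/ki and 17.0 in wild type and 1438083_at with 12.4 in Gata4ki/ki and 6.96 in wild type. Hhip was thus read near or under the floor on every probe set. Of the probe sets with like signal, 82.6% were at least as far apart as 1455277_at, and 34.6% as the bound of 1421426_at.

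The GLI factors were the group in which every probe set was measured, 6 of 6. Of the 6, 5 had a ratio below 0, where 50.6% of all measured probe sets did. These 5 include every probe set of Gli3, so they are not separate genes. Gli1 encodes the GLI protein that acts only as an activator, and its transcript depends on the pathway. Its single probe set 1449058_at had 82.1 in Gata4ki/ki and 92.4 in wild type, a log2 ratio of -0.17, and 59.0% of the probe sets with like signal were at least as far apart. Gli2 encodes the main activator. Its probe set 1459211_at had 512.8 in Gata4ki/ki and 537.4 in wild type, a ratio of -0.07, and 1446086_s_at had 198.0 in Gata4ki/ki and 181.6 in wild type, a ratio of 0.12. These probe sets differed in sign, and 65.2% and 57.3% of the probe sets with like signal were at least as far apart.

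Gli3 encodes the main repressor of the pathway, and all of its probe sets gave the lower signal in the mutant. The probe set 1455154_at had 392.5 in Gata4ki/ki and 501.6 in wild type, a log2 ratio of -0.35. The probe set 1456067_at had 193.6 in Gata4ki/ki and 240.0 in wild type, a ratio of -0.31. The dimmest, 1450525_at, had 18.9 in Gata4ki/ki and 32.3 in wild type, a ratio of at most -0.42. These readings come from the same RNA samples, so they bear on probe noise and not on the spread between embryos. All probe sets were below 0 in 15.0% of the 2182 genes with at least 3 measured probe sets. The share of like probe sets at least as far apart was 7.20% for 1455154_at, 18.1% for 1456067_at and 30.0% for the bound.

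**Figure D2:**
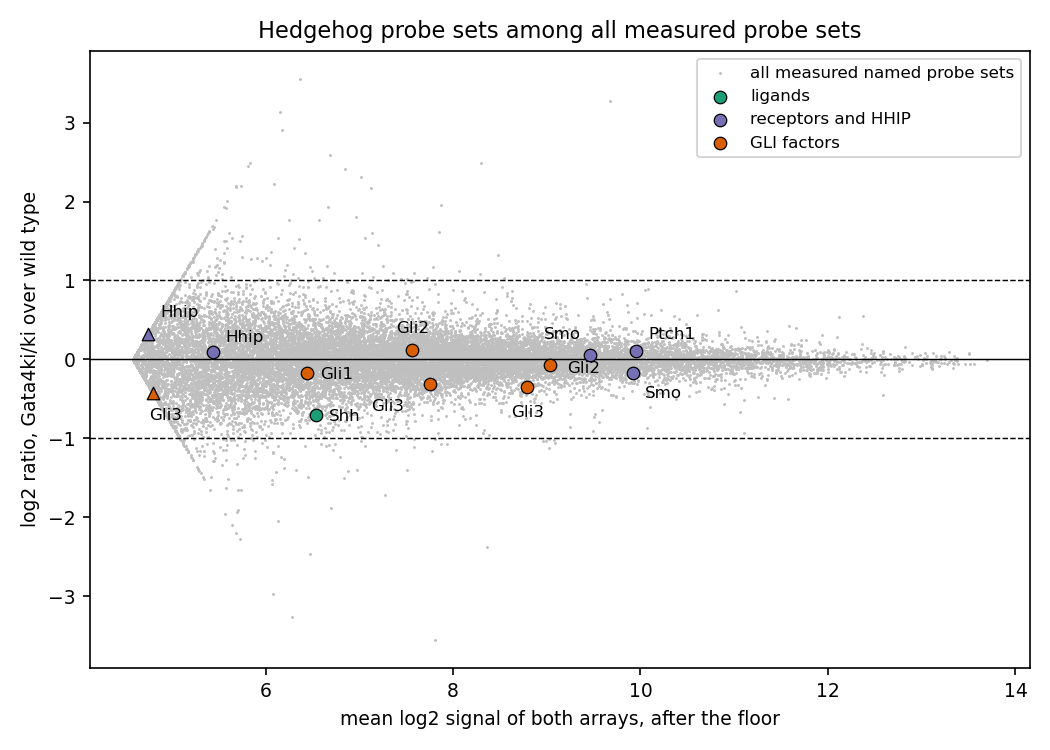
Log2 ratio of Gata4ki/ki over wild type against the mean log2 signal of both arrays for all 21238 measured named probe sets (grey), with the 12 measured Hedgehog probe sets coloured by role and bounds drawn as triangles. Dashed lines mark 2-fold; no Hedgehog probe set reaches them, and Shh at -0.70 lies furthest from 0 among them.

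Represented by the probe set with the highest mean signal, the 7 measured Hedgehog genes had a median log2 ratio of -0.17, with 5 genes below 0 and 2 above. Over all 12300 measured genes the median was 0.01, and 48.6% were below 0. The Hedgehog median was -0.068 when suffixed probe sets were left out and -0.058 when a gene was given the median of its probe sets. The gene at the middle was Smo, whose probe sets differed in sign.

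**Figure D3:**
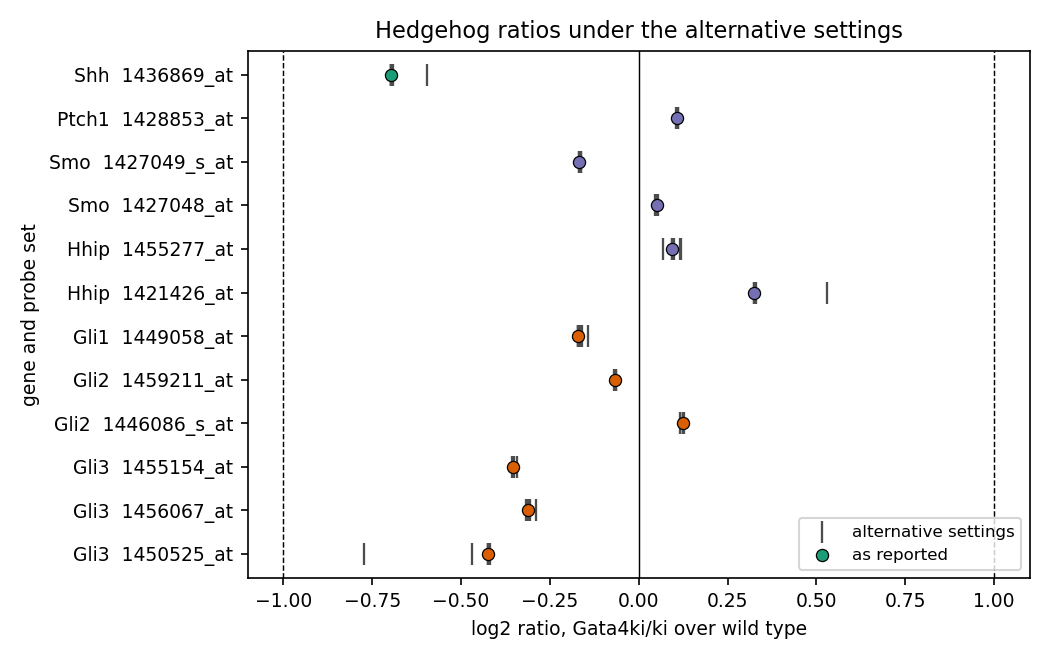
Log2 ratio of Gata4ki/ki over wild type for each of the 12 measured Hedgehog probe sets as reported (points, coloured by role) and under the alternative settings (ticks), with dashed lines at 2-fold. No tick reaches 2-fold or crosses 0, and the widest range is that of Gli3 1450525_at, a bound as reported. With the floor at the 40th percentile both arrays passed it, and its ratio was -0.77.

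The rest of the pathway, genes reported as its targets and zinc finger genes related to GLI were described with 6 lists of 86 genes. Of these, 80 had a probe set of their own and 67 were measured. None of the 67 reached 1.5-fold in either direction, where 6.65% of all measured genes did. Ratios were above 0 for 38 and below 0 for 29, where 48.6% of all measured genes were below 0. None reached 2-fold either, where 1.38% of all did. The count at 1.5-fold rests on the probe set that stood for each gene and was not recomputed under the alternatives. Nr2f2 was represented by 1416158_at, with 766.6 in Gata4ki/ki and 791.5 in wild type, a log2 ratio of -0.05. Its probe set 1416159_at, of nearly the same mean signal, had 618.3 in Gata4ki/ki and 963.3 in wild type. That is a ratio of -0.64, beyond 1.5-fold.

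Genes for the release of ligand from the producing cell had 4 of 6 members measured and a median log2 ratio of 0.07, which ran up to 0.15 over the alternative settings. Hhat, the acyltransferase that adds palmitate to the ligands, had 110.1 in Gata4ki/ki and 100.4 in wild type, a ratio of 0.13. Disp1, the transporter that frees the lipid-bearing ligand from the membrane, had 98.8 in Gata4ki/ki and 111.3 in wild type, a ratio of -0.17. Scube3, a secreted protein of the family that assists release, had 162.4 in Gata4ki/ki and 135.2 in wild type, a ratio of 0.26. Disp2 and Scube1 were under the floor on both arrays.

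Among the genes of ligand reception 8 of 9 were measured, with a median of 0.07, which was -0.01 when a gene was given the median of its probe sets. The co-receptor Gas1 had the highest signals of this list, 4200 in Gata4ki/ki and 4584 in wild type, a log2 ratio of -0.13. Its probe sets differed in sign, with 0.27 on 1448494_at and at most -0.09 on 1456322_at. Boc, another co-receptor that binds the ligands, had 281.0 in Gata4ki/ki and 206.2 in wild type, a ratio of 0.45. Gpr161, a ciliary receptor that restrains the pathway through protein kinase A, had 264.4 in Gata4ki/ki and 194.6 in wild type, a ratio of 0.44. Evc, a ciliary protein that works with SMO, had 88.9 in Gata4ki/ki and 123.1 in wild type, a ratio of -0.47. The second measured probe set of Boc gave 0.15, and Evc had no second measured one.

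All 15 genes of signal transduction inside the cell were measured, and their median was -0.003, or -0.08 with the median over the probe sets of a gene. Tulp3, which carries receptors into the cilium, had 343.5 in Gata4ki/ki and 455.9 in wild type, a log2 ratio of -0.41, and its other measured probe set gave -0.54. Gsk3b, a kinase that marks GLI proteins for processing, had 942.5 in Gata4ki/ki and 805.5 in wild type, a ratio of 0.23. Glis2, a GLI-similar zinc finger factor, had 734.1 in Gata4ki/ki and 625.8 in wild type, also a ratio of 0.23, while its second probe set gave -0.47. Fbxw11, a ubiquitin ligase subunit, had the highest signals of this list, 3115 in Gata4ki/ki and 3277 in wild type.

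The primary cilium, the organelle in which SMO and the GLI proteins act, was represented by 22 measured genes of 28, with a median of 0.02. Dync2h1, the motor of return transport in the cilium, had 163.2 in Gata4ki/ki and 128.4 in wild type, a log2 ratio of 0.35. Wdr19, a subunit of the transport complex, had 123.9 in Gata4ki/ki and 102.8 in wild type, a ratio of 0.27. Bbs7, a subunit of the BBSome, had 90.0 in Gata4ki/ki and 111.0 in wild type, a ratio of -0.30. Tmem67 and Fuz were under the floor on both arrays. Arl3, a small GTPase of the cilium, had the highest signals of this list, 1328 in Gata4ki/ki and 1501 in wild type.

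Genes reported as Hedgehog targets in one tissue or another had 16 of 21 members measured and a median of 0.05. Prdm1, a transcriptional repressor, had 124.6 in Gata4ki/ki and 92.7 in wild type, a log2 ratio of 0.43. Snai1, a zinc finger repressor of epithelial genes, had 54.1 in Gata4ki/ki and 71.8 in wild type, a ratio of -0.41. Bmp4, a secreted ligand of the BMP family, had 469.6 in Gata4ki/ki and 365.9 in wild type, a ratio of 0.36. Ccnd2, a D-type cyclin, had 2578 in Gata4ki/ki and 2573 in wild type, the highest signals of this list. The forkhead genes Foxf1, Foxf2 and Foxl1, targets in the mesenchyme around the gut, and Nkx2-2 and Pax9 were under the floor on both arrays. Of the zinc finger genes related to GLI, Glis1 and Glis3 had ratios of -0.23 and 0.02, and Zic1, Zic2, Zic4 and Zic5 were under the floor on both arrays.

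**Figure D4:**
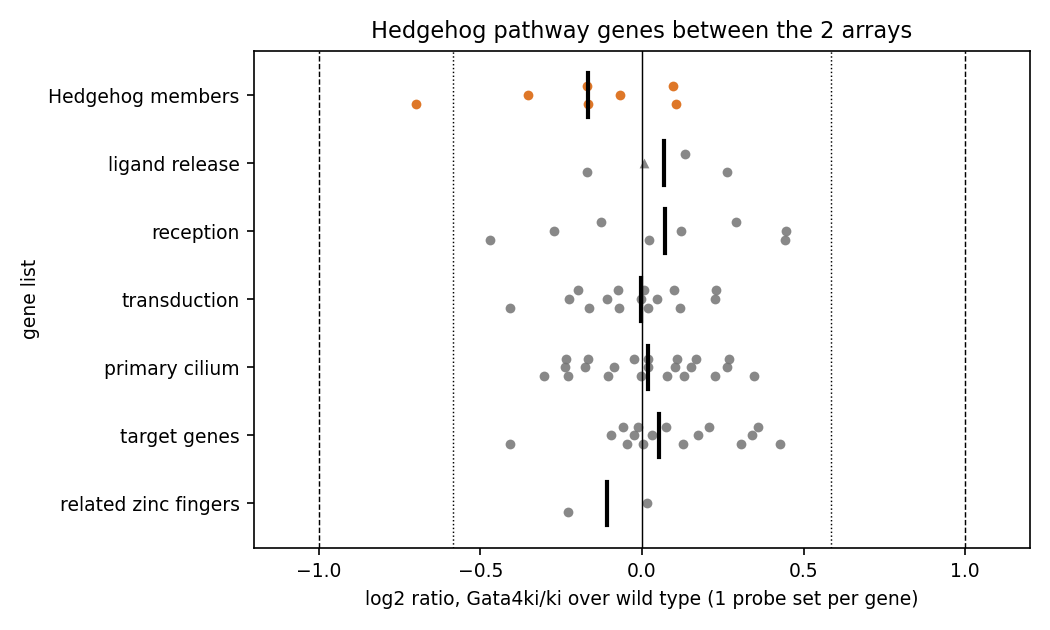
Log2 ratio of Gata4ki/ki over wild type for each measured gene of the Hedgehog members (orange) and of the 6 pathway lists (grey), 1 probe set per gene, with bounds as triangles and list medians as black bars; points are offset vertically only for legibility. Dotted lines mark 1.5-fold and dashed lines 2-fold; Shh at -0.70 is the only gene drawn beyond 1.5-fold.

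Markers of tissues that can hold Shh were set beside it, and 48.6% of all measured genes had ratios below 0. Of the gut endoderm list 5 of 10 genes were measured and all 5 had ratios below 0, with Cldn6 and Epcam at -0.002 and -0.04, Cdx2 at most -0.01 and a median of -0.04. Its summed signals were 859.0 in Gata4ki/ki and 1088 in wild type, and 568.2 in Gata4ki/ki and 626.6 in wild type without Sox17. Its defining genes Cdx1, Foxa1, Foxa2, Foxa3 and Lgals4 were under the floor on both arrays, and Sox17, also an endothelial gene, had the lowest ratio at -0.66. Vil1, which encodes villin of the gut brush border, had 19.7 in Gata4ki/ki and 32.5 in wild type.

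Of the urothelium and collecting duct list 6 of 7 measured genes had ratios below 0, with a median of -0.14 and summed signals of 1081 in Gata4ki/ki and 1232 in wild type. Upk3a, Trp63 and Krt5 were under the floor on both arrays. The mesonephric duct and tubule list had 6 of 7 ratios below 0, a median of -0.16 and summed signals of 2161 in Gata4ki/ki and 2604 in wild type, with Calb1, a calcium-binding protein of the duct, at -0.72. The floor plate and notochord list had both measured genes above 0, Ntn1 at 0.06 and Spon1 at 0.26, and summed signals of 370.4 in Gata4ki/ki and 326.1 in wild type, and Foxa2 and Nkx6-1 were under the floor on both arrays. The part of these tissues in the Shh ratio was not tested.

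Markers of the cells that make or answer DHH were set beside Dhh, Ptch1 and Gli1. Among Sertoli genes 7 of 10 were measured, 4 with ratios below 0, where 48.6% of all measured genes were. Amh, Sox8 and Sox10 were under the floor on both arrays. The tissue was XX on both arrays, and the presence or number of Sertoli cells was not tested. The summed signals of this list were 442.9 in Gata4ki/ki and 563.9 in wild type. Dmrt1, a transcription factor that Sertoli and germ cells share, had a ratio of -0.71. Aard, Fgf9 and Cst9 had -0.55, -0.47 and at most -0.49, while Sox9, Cyp26b1 and Ptgds had 0.28, 0.41 and 0.17. Sox10, which also marks Schwann cells and their precursors, and Foxd3 were likewise at floor in the Schwann and neural crest list, whose 3 measured genes had a median of 0.01 and whose summed signals were 386.9 in Gata4ki/ki and 415.6 in wild type. Of the 8 Leydig and steroidogenic genes 5 were measured and 4 were at least 2-fold higher in Gata4ki/ki, where 0.846% of all measured genes were. The list was written with earlier results of these data known, so this count is a description and not a test. Insl3 and Lhcgr had no probe set of their own, and Cyp11a1 had a log2 ratio of at least 0.55. Cyp17a1, which encodes an enzyme of androgen synthesis, had 211.8 in Gata4ki/ki and 6.49 in wild type, and Hsd3b1, a hydroxysteroid dehydrogenase, had 297.0 in Gata4ki/ki and 66.1 in wild type. Inha, the inhibin alpha subunit, had 461.7 in Gata4ki/ki and 118.6 in wild type. Star, the cholesterol carrier of mitochondria, had 91.7 in Gata4ki/ki and 19.1 in wild type on the probe set with its highest signal. The Star probe set 1418729_at, above the floor on both arrays, had 32.4 in Gata4ki/ki and 28.8 in wild type, a log2 ratio of 0.17. The bound of Star 1418728_at was at least 0.91. The summed signals of the list were 1104 in Gata4ki/ki and 237.5 in wild type, and Hsd17b3 was under the floor on both arrays. The median over these genes, bounds included, was 1.96 on the log2 scale. Ptch1 had 0.11, Gli1 -0.17 and Hhip, read near the floor, 0.09. A link between the steroidogenic genes and these Hedgehog ratios was not tested.

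Hedgehog receptors and GLI factors are usually found in the stroma, and general markers of the tissue were set beside them. The 6 measured somatic gonad genes had a median of -0.01 and summed signals of 6693 in Gata4ki/ki and 6919 in wild type. The 6 measured germ cell genes had a median of 0.10, with 4 ratios above 0 and 2 below, Dazl at -0.31 and Ddx4 at -0.21. Their summed signals were 4108 in Gata4ki/ki and 3553 in wild type. Dppa5a alone, with 2476 in Gata4ki/ki and 1868 in wild type, made up most of each sum. The 6 measured stromal genes had a median log2 ratio of -0.04 and summed signals of 7581 in Gata4ki/ki and 7638 in wild type. Endothelial genes had 7 of 10 ratios below 0, where 48.6% of all measured genes were. Their median was -0.15 and their summed signals were 2451 in Gata4ki/ki and 2804 in wild type. Shh is also made in the fetal adrenal cortex. In that list Mc2r and Mrap were measured, with ratios of 0.32 and at least 0.52. Cyp21a1, Cyp11b1 and Cyp11b2 were under the floor on both arrays. The summed signals of the list, with these genes under the floor included, were 219.3 in Gata4ki/ki and 160.9 in wild type. Of the cartilage genes, beside Ihh, 4 of 9 were measured with a median of -0.09 and summed signals of 330.4 in Gata4ki/ki and 302.1 in wild type, and Acan, Col9a2, Matn1, Comp and Col10a1 were under the floor on both arrays. The part of these cell types in the Hedgehog ratios was not tested.

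RefSeq promoter windows of assembly GRCm38.p6, from 250 bases before to 50 bases after a gene's start, were at hand for 7 of the 9 genes, without Shh and Gli1. The GLI consensus GACCACCCA was searched on both strands. It was in none of the 7 windows, also when 1 mismatch was allowed, while 0.25% of all 32851 windows held it exactly and 6.74% with up to 1 mismatch. These letters are not in these windows, which says nothing of sites elsewhere.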

How the data were processed

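Per the submitters' processing notes, the signal intensity values were made with MAS5 and deposited on a linear scale. Its version is not given in the sources used here, nor are detection calls or filters. After trimming 2% of values at each end, the mean signal was 150.0 on both arrays. Values were used as deposited with Python 3.11.15. Of 45101 probe sets, 34958 had 1 symbol, 932 several and 9211 none, and the 64 control probe sets were left out. The gene numbers of all 9 Hedgehog genes gave the same symbols in RefSeq. No build is named for the array, so no gene coordinates are given.

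The probe set of highest mean log2 signal, after the floor, stood for its gene. Precision is limited by the number of arrays and by signal over background. The Hedgehog genes, the 6 pathway lists and the 14 marker lists were chosen with earlier results of these data known. Named were all Hedgehog genes and, per pathway list, the genes at least 1.5-fold apart, otherwise the 3 largest ratios, and the gene of highest signal, as a rule of choice only. Marker lists are given by counts, with genes at the floor or 1.5-fold apart named, and some others named to show the spread of a list. No protein sequences were used here. Alternatives were floors at the 40th and 60th percentile, a pseudocount of 16, 3 scalings, leaving out suffixed probe sets and the median over probe sets.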

Additional observations from a re-analysis of the deposited data

How the results depend on the processing

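With 8 alternatives, 131 of 135 recomputed ratios and medians moved by less than the spread used, the robust SD of the ratio at like signal for a probe set and that of all genes divided by the root of the list size for a median. This spread is between probe sets and not between replicates. Many of these values could not move. A changed floor leaves a ratio as it was when both arrays stay above it. Leaving out suffixed probe sets leaves the ratios of the others as they were. The 62 recomputed counts of 2-fold differences were all 0, as reported. The count of Hedgehog probe sets 2-fold apart was 0 in the 7 alternatives that bear on it, and no measured Hedgehog probe set changed sign. Shh ranged from -0.70 to -0.59, Gli3 1455154_at from -0.36 to -0.34 and Ptch1 1428853_at from 0.105 to 0.110 on the log2 scale. The bounds depended on the floor. At the 40th percentile both arrays passed it, and Gli3 1450525_at had a ratio of -0.77 and Hhip 1421426_at one of 0.53. The Hedgehog median over genes moved to -0.068 without suffixed probe sets and to -0.058 with the median over the probe sets of a gene. Under that last rule the reception median was -0.011 and the transduction median -0.077. The ligand release median ran from 0.07 to 0.15, with 0.15 at the 40th percentile floor and 0.13 at the 60th or without suffixed probe sets. The median of all genes stayed within 0.01 of 0 in every setting. No paired analysis was possible because each group had 1 array. Signal over background limits Dhh, Ihh and most Hhip readings.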

Other observations

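Single probe sets of the wider pathway that did not stand for their gene went further apart than the gene-level values. These were chosen after their values were seen. Of 133 measured probe sets in the 6 pathway lists, 7 were at least 1.5-fold apart, or 5.26%, where 7.73% of all measured probe sets were. Kif3b, a subunit of the kinesin motor that builds the cilium, had 30.0 in Gata4ki/ki and 62.3 in wild type on 1420987_at, a log2 ratio of -1.05, the only one beyond 2-fold. Its other 3 probe sets gave -0.003, -0.22 and -0.36. The kinase gene Gsk3b had 0.76 on 1439949_at, the cilium gene Bbs4 had 0.65 on 1420107_at, and the ubiquitin ligase gene Fbxw11 had at most -0.59 on 1438336_at.

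Nr2f2, which encodes the orphan receptor COUP-TFII of stromal cells and a reported Hedgehog target, had 5 measured probe sets that ranged widely. Its probe set 1444229_at had 93.8 in Gata4ki/ki and 177.4 in wild type, a log2 ratio of -0.92, and 1416159_at had 618.3 in Gata4ki/ki and 963.3 in wild type, a ratio of -0.64. The remaining ones gave -0.05, 0.05 and 0.16, so the direction of Nr2f2 depended on the probe set read. Bcl2, an inhibitor of cell death, had -0.91 on 1443837_x_at and 0.13 on the probe set with its highest signal.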
